A study of Mus musculus with 8 samples.

Results

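Withdrawal of LIF from mouse embryonic stem cells (ESCs) was described across the transcriptome by comparing the cultures labelled 2i with those labelled 2i+LIF, 4 of the 8 cultures of the series, with 2 in each group. All cultures were of the Rex1GFPd2 line (strain 129), in which a short-lived GFP reports on Zfp42 (Rex1), and so come from a single line. The cells were expanded for 6 passages in 2i and then kept for 5 passages in their condition, to passage 11, in N2B27 medium on gelatin, and were split every 3 days to 15000 cells per square centimetre. Cultures labelled 2i received the GSK3 inhibitor CH (3 µM) and the MEK inhibitor PD (1 µM), and cultures labelled 2i+LIF received LIF in addition. The other 4 cultures, 2 labelled CH+LIF and 2 labelled LIF+PD, lacked either PD or CH and kept LIF. RNA was sequenced, and of the 38991 genes in the deposited values, 12777 were tested, which were at least 300 bases long and reached an FPKM of 1 in at least 2 of the 8 cultures. FPKM, fragments per kilobase of transcript scaled to library size, is a level per length and can be compared between genes.

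LIF binds a heterodimer of the LIF receptor (Lifr) and gp130 (Il6st), which activates JAK kinases, and these phosphorylate the transcription factor STAT3. Phosphorylated STAT3 enters the nucleus and switches on target genes, among them Socs3, which encodes a feedback inhibitor of the receptor complex. In mouse ESCs this pathway sustains self-renewal together with the inhibitors of 2i, which act on the GSK3 and MEK pathways.

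FPKM values carry no read number, so depth is known only as a ratio: relative to replicate 1 of 2i+LIF, it was estimated as 1.10 in replicate 2 of 2i+LIF, 0.499 in replicate 1 of 2i and 0.968 in replicate 2 of 2i. Replicate 1 of 2i was thus the shallowest culture. Across the genes tested, Pearson's r was 0.990 within 2i+LIF, 0.986 within 2i and 0.957 to 0.961 between the groups, which is a description across genes that are not independent replicates. Core ESC markers were high in all 4 cultures, with Pou5f1 (Oct4) at 1876 to 2230 FPKM, Nanog at 409 to 549, Sox2 at 198 to 249 and Zfp42 at 190.3 to 217. The primitive endoderm markers summed to 1.44 to 2.23 FPKM per culture. Other marker sums were higher in 2i, but not every marker in them was. The 6 fibroblast markers summed to 1.496 and 4.19 FPKM in 2i and 0.270 and 0.617 in 2i+LIF, with 5 of them under 1 FPKM in these cultures and Dcn, Lum and Col3a1 listed at 0. Thy1 made up most of this sum in 2i, at 1.4 and 3.44 FPKM. The mesoderm markers summed to 21.9 and 11.97 FPKM in 2i and 7.81 and 6.64 in 2i+LIF, and the neural markers to 7.81 and 9.26 in 2i and 1.13 and 1.09 in 2i+LIF. Among the mesoderm markers T and Eomes were higher in 2i, Kdr was lower and the groups overlapped for Mixl1. Only 2 neural markers had values. Pax6 was higher in 2i (7.81 and 9.2 FPKM, compared with 0.577 and 0.459). Sox1 was lower (0 and 0.0595 FPKM, compared with 0.557 and 0.631). The trophectoderm markers summed to 13.9 and 17.6 FPKM in 2i and 12.7 and 8.55 in 2i+LIF, and the groups overlapped for Gata3 and Elf5. The part of such cells in the results was not tested. In these bulk samples, fewer cells of a type and less RNA per cell cannot be told apart.

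Expression was compared as the mean log2(FPKM + 1) of 2i minus that of 2i+LIF, here called the log2 difference, so that a negative value is a lower level without LIF. On this scale the change of a gene with a low FPKM appears smaller than it is. The difference and its SE came from a limma fit of all 8 cultures (n = 2 in each group), and a gene was called where its Benjamini-Hochberg adjusted p over the 12777 genes was below 0.05. Each call was also tested under 16 alternatives, among them the omission of each culture, and where an alternative ended a call this is stated with its adjusted p. Nothing in the labels says that replicates were separate derivations, so p-values measure only the spread between these samples.

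Without LIF, 1322 genes (10.3% of those tested) were higher and 1193 (9.34%) were lower, 2515 (19.7%) in all. These shares are the reference for the counts of list members given below. The median log2 difference of all genes tested was 0.035. The called genes that rose had a median difference of 0.77 and those that fell a median size of 0.85. At a difference of at least 1, 418 genes (3.27%) were higher and 469 (3.67%) were lower, and at a size of at least 3, the counts were 1 and 26. The largest decrease among the genes tested was that of Socs3 (log2 difference -4.65). The replicates of the groups did not overlap for any called gene, and the same held for 61.4% of all genes tested.

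**Figure D1:**
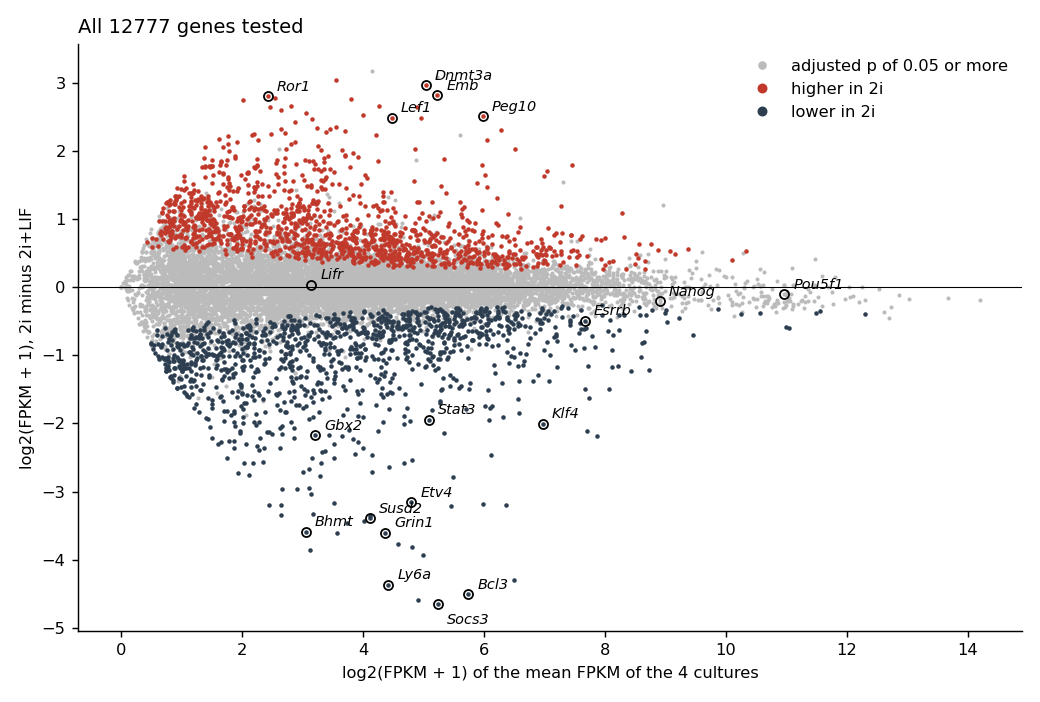
Log2 difference of 2i minus 2i+LIF (vertical axis) against the mean level of the 4 cultures, as log2(FPKM + 1), for the 12777 genes tested. Each point is a gene, red where it was higher and dark blue where it was lower in 2i at an adjusted p below 0.05, and circles mark genes described in the text. The decreases extend to -4.65 (Socs3), while Pou5f1, Nanog and Lifr lie near 0.

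Of the 21 components of the LIF receptor and JAK-STAT pathway that were tested, 4 were lower and 1 was higher in 2i, and the median log2 difference was -0.088. The shares over all genes were 9.34% lower and 10.3% higher. The receptor subunit Lifr was at 7.43 and 8.46 FPKM in 2i and 7.49 and 7.92 in 2i+LIF, so the groups overlapped (log2 difference 0.037 ± 0.11, adjusted p = 0.848, 95% interval -0.23 to 0.30). Il6st (gp130) was at 163 and 58.8 FPKM in 2i and 73.8 and 67.6 in 2i+LIF, and replicate 1 of 2i stood apart from the other 3 cultures. Its log2 difference was 0.47 ± 0.52, adjusted p = 0.57, and the interval of -0.73 to 1.66 was wide. For the kinase Jak1 (12.5 and 11.9 FPKM in 2i and 13.2 and 13.1 in 2i+LIF) the log2 difference was -0.097 ± 0.094, adjusted p = 0.512. Its 95% interval was -0.32 to 0.12.

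Stat3 itself (deposited position chromosome 11, 100885098 to 100939540, mm10) was the component that fell most, from 55.9 and 49.6 FPKM in 2i+LIF to 9.69 and 17.1 in 2i. The mean FPKM was 3.93-fold lower without LIF, and the log2 difference was -1.95 ± 0.25, adjusted p = 0.00181. Cultures that kept LIF had levels near those of 2i+LIF, at 87.8 and 62.3 FPKM in CH+LIF and 56 and 49.6 in LIF+PD. The 3' part of the Stat3 locus overlaps that of Stat5a on the other strand, and Stat5a was at 1.33 and 1.59 FPKM in 2i and 1.81 and 1.75 in 2i+LIF. Jak3, a kinase best known from lymphoid cytokine receptors, was at 11 and 9.96 FPKM in 2i and 24.7 and 29.2 in 2i+LIF, with both 2i cultures below both 2i+LIF cultures (log2 difference -1.28 ± 0.11, adjusted p = 0.000353). The kinase Tyk2 fell by less, from 9.21 and 10.1 FPKM in 2i+LIF to 5.61 and 5.37 in 2i (log2 difference -0.72 ± 0.12, adjusted p = 0.00495). The component that rose was Cntfr, the receptor of a cytokine related to LIF, at 2.91 and 2.32 FPKM in 2i and 1.34 and 0.789 in 2i+LIF (log2 difference 0.82 ± 0.20, adjusted p = 0.0244). The other 16 components were not called, and among these Stat6 (-0.81 ± 0.24, adjusted p = 0.0535), Stat4 (0.51 ± 0.16, adjusted p = 0.0594) and Ptpn11 (0.49 ± 0.16, adjusted p = 0.0709), a phosphatase of the receptor complex, had adjusted p-values below 0.1. The remaining Lif, Il6ra, Jak2, Stat2, Stat5a, Stat5b, Pias1, Pias3, Grb2 and Gab1 had log2 differences between -0.29 (Il6ra) and 0.42 (Jak2). In the alternative analyses, the call was lost for Cntfr without replicate 1 of 2i or replicate 2 of 2i+LIF (adjusted p = 0.103 to 0.133) and with no FPKM filter or with only the 4 cultures fitted (adjusted p = 0.0566 to 0.0656).

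Most target genes of LIF and STAT3 were lower in 2i. Of the 18 tested, which include Stat3, 12 were lower and 0 were higher in 2i, and the median log2 difference was -1.21, compared with 0.035 for all genes. Leaving out each culture in turn left 11 or 12 of them lower. Socs3 (deposited position chromosome 11, 117966079 to 117970047) was at 2.59 and 1.29 FPKM in 2i and 63.9 and 79 in 2i+LIF, and its mean FPKM was 36.9-fold lower without LIF. Its log2 difference of -4.65 ± 0.21, adjusted p = 2.7e-05 was the largest decrease among the genes tested. In the other cultures with LIF it was at 98.2 and 119 FPKM in CH+LIF and 70.3 and 75.7 in LIF+PD, so that the 2i cultures stood below all 6 cultures that received LIF.

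Bcl3 (chromosome 7, 19808462 to 19822770), a nuclear member of the I-kappa-B family, showed a drop of similar size, at 4.19 and 2.9 FPKM in 2i and 104 and 98.1 in 2i+LIF (28.5-fold lower, log2 difference -4.503 ± 0.20, adjusted p = 2.7e-05). Again the other cultures with LIF were high, at 88 and 128 FPKM in CH+LIF and 62.8 and 76.8 in LIF+PD. Junb, an AP-1 transcription factor, was at 1.2 and 0.789 FPKM in 2i and 7.7 and 11.1 in 2i+LIF (log2 difference -2.37 ± 0.23, adjusted p = 0.00047). Icam1, a cell adhesion molecule, was at 4.13 and 4.25 FPKM in 2i and 23.9 and 27.4 in 2i+LIF (log2 difference -2.35 ± 0.11, adjusted p = 2.88e-05). For Junb and Icam1, too, the 2i cultures were below all 6 cultures with LIF.

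The transcription factor genes of this group fell by different amounts. Klf4 (chromosome 4, 55527143 to 55532466), which encodes a Krüppel-like factor, was at 47.7 and 50.6 FPKM in 2i and 203 and 196 in 2i+LIF and its mean was 4.06-fold lower (log2 difference -2.001 ± 0.12, adjusted p = 6.55e-05). It was at 175 and 219 FPKM in CH+LIF and 118 and 103 in LIF+PD. The related Klf5 was at 76.2 and 60.8 FPKM in 2i and 167 and 168 in 2i+LIF (log2 difference -1.28 ± 0.12, adjusted p = 0.00038), and Tfcp2l1 at 62.8 and 53.7 FPKM in 2i and 115 and 123 in 2i+LIF (log2 difference -1.02 ± 0.11, adjusted p = 0.000978). The homeobox gene Gbx2 (chromosome 1, 89927962 to 89933290) was at 2.65 and 2.09 FPKM in 2i and 14.8 and 13.4 in 2i+LIF, 5.97-fold lower (log2 difference -2.17 ± 0.15, adjusted p = 0.000117).

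Gbx2 and Tfcp2l1 had other levels in the remaining cultures than Klf4. Over all genes tested, 13.9% were higher and 11.1% lower in 2i than in CH+LIF, and 11.7% were higher and 14.6% lower than in LIF+PD. Gbx2 was at 21.9 and 25.8 FPKM in CH+LIF and 2.27 and 2.73 in LIF+PD, and in the same fit 2i differed from CH+LIF (-2.88 ± 0.15, adjusted p = 3.24e-05) but was not called different from LIF+PD (-0.055 ± 0.15, adjusted p = 0.814). Tfcp2l1 was at 108 and 119 FPKM in CH+LIF and 57 and 48.9 in LIF+PD, with 0.13 ± 0.11, adjusted p = 0.431 for 2i minus LIF+PD. Klf4, by contrast, was lower in 2i than in LIF+PD (-1.15 ± 0.12, adjusted p = 0.000444) and than in CH+LIF (-1.97 ± 0.12, adjusted p = 6.42e-05).

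Among the kinases of the group, Pim3 was at 22.8 and 19.9 FPKM in 2i and 51 and 45.7 in 2i+LIF (log2 difference -1.14 ± 0.11, adjusted p = 0.000555). The related Pim1 was at 54.9 and 37.7 FPKM in 2i and 91.4 and 72.8 in 2i+LIF (log2 difference -0.83 ± 0.20, adjusted p = 0.0236). Of the targets, 6 were not called. Cish, another feedback inhibitor of cytokine receptors, was at 0.301 and 0.872 FPKM in 2i and 2.21 and 1.5 in 2i+LIF (log2 difference -0.86 ± 0.29, adjusted p = 0.0782), and its FPKM was at most 2.21 in these 4 cultures, compared with 8.64 and 15 in LIF+PD. The log2 differences of Bcl6 (-0.41 ± 0.16, adjusted p = 0.118), Socs1 (-0.15 ± 0.18, adjusted p = 0.594), Socs2 (0.098 ± 0.20, adjusted p = 0.77) and Mcl1 (0.26 ± 0.13, adjusted p = 0.202) missed the threshold as well. Myc, a target of LIF signalling, was at 12.5 and 9.89 FPKM in 2i and 8.61 and 5.31 in 2i+LIF (log2 difference 0.64 ± 0.31, adjusted p = 0.192). Significance was lost for Pim1 without replicate 2 of 2i or replicate 1 of 2i+LIF (adjusted p = 0.093 to 0.129) and with no FPKM filter or with only the 4 cultures fitted (adjusted p = 0.0604 to 0.0654).

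**Figure D2:**
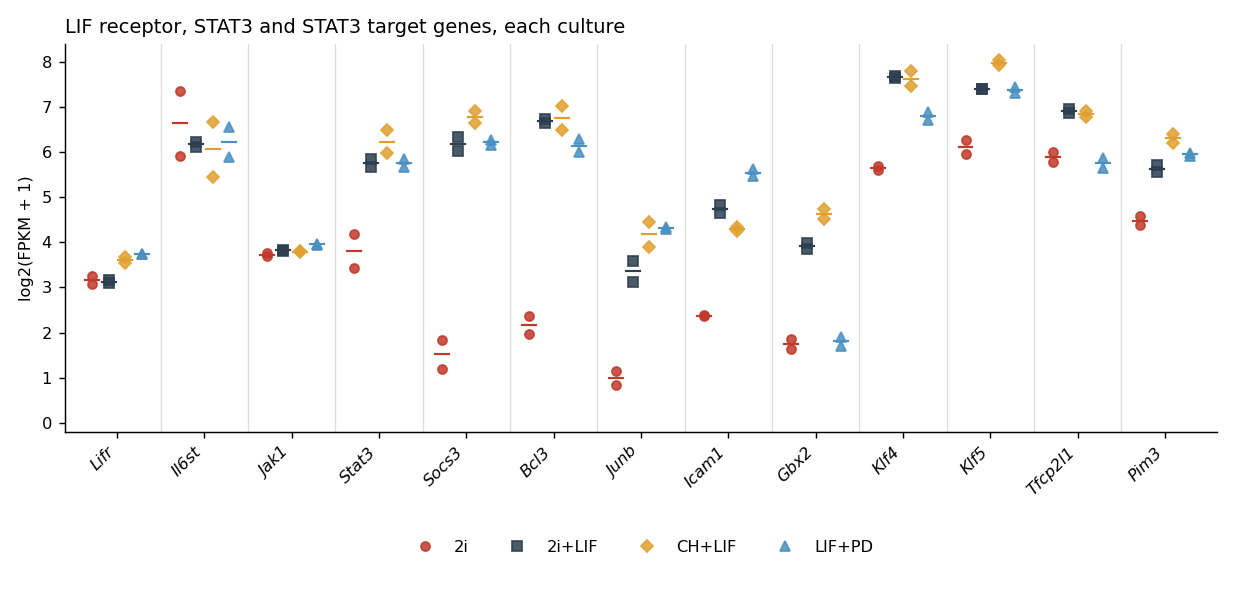
Levels of receptor, kinase, STAT3 and target genes as log2(FPKM + 1) (vertical axis) in each of the 8 cultures. Symbols are cultures, coloured and shaped by condition, and short bars are the means of the 2 replicates. The 2i cultures lie below all cultures with LIF for Stat3, Socs3, Bcl3, Junb and Icam1, whereas for Gbx2 they lie with LIF+PD and for Lifr, Il6st and Jak1 the cultures of 2i and 2i+LIF overlap or lie close together.

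The 250 bases before the RefSeq start site are shown for Socs3, the target with the largest change, and for Icam1. They are also shown for 2310043M15Rik, a non-coding antisense gene with the next largest decrease. These windows were chosen since they contain TTCNNNGAA, the palindromic motif that STAT factors are known to bind. The motif, shown in capitals, is its own reverse complement, so that a match stands on both strands. Sequences are from RefSeq (GRCm38.p6), 5′ to 3′ along the strand of the gene, and the positions are chr11:117969367-117969616 (minus strand), chr9:21015690-21015939 (plus strand) and chr16:93794902-93795151 (minus strand).
Socs3: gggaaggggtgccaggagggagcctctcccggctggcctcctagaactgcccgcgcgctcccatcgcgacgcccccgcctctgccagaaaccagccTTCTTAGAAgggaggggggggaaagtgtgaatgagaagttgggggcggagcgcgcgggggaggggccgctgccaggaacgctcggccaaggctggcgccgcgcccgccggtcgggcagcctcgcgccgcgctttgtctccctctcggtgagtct
Icam1: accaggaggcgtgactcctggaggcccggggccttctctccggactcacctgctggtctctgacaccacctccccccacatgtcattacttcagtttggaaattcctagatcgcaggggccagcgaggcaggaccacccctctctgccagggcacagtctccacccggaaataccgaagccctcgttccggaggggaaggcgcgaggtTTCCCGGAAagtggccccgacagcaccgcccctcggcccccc
2310043M15Rik: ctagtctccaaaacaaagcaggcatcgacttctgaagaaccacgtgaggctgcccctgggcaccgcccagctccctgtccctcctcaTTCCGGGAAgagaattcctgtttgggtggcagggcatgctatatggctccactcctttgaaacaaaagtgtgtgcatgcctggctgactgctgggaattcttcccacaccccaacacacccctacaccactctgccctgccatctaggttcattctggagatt
The matches start 154, 42 and 163 bases before the RefSeq start site. For Socs3 this site differs from the 5′ end of the deposited position, which is at 117970047. By the deposited position, the Socs3 window and its motif lie within the gene and not before it. The search covered 300 bases, from 250 before to 50 after the start site, and found the motif in 2726 of 32851 promoters (8.30%). It was present in 78 of 844 promoters (9.24%) of genes lower in 2i, 78 of 964 (8.09%) of genes higher in 2i and 579 of 7288 (7.94%) of genes tested and not called. Of the 12 STAT3 targets that fell, 10 had a promoter in the table, and 2 of these held the motif. Bcl3 had none in this window. A match is a description of the sequence and not of binding.

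Acute-phase genes, which STAT3 controls in liver, were mostly not expressed, and of the 6 tested 4 fell and 1 rose. Spp1 (osteopontin) was at 199.8 and 212 FPKM in 2i and 501 and 463 in 2i+LIF (log2 difference -1.22 ± 0.091, adjusted p = 0.00016), and Saa3, a serum amyloid gene, at 2.25 and 2.89 FPKM in 2i and 13.4 and 11.8 in 2i+LIF (log2 difference -1.93 ± 0.17, adjusted p = 0.000349). A2m (-1.59 ± 0.24), a protease inhibitor, and Timp1 (-0.50 ± 0.12), an inhibitor of metalloproteinases, were also lower. Cebpd, a transcription factor gene, was the member that rose, at 2.94 and 2.18 FPKM in 2i and 0.551 and 0.251 in 2i+LIF (log2 difference 1.35 ± 0.20, adjusted p = 0.00337). The threshold was no longer passed by Timp1 without replicate 2 of 2i or either replicate of 2i+LIF (adjusted p = 0.0858 to 0.105).

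Among the 12 components of the naïve pluripotency network, 6 were lower and none was higher in 2i, with a median log2 difference of -0.43, and without replicate 1 of 2i+LIF 4 were lower. Gbx2, Klf4, Stat3 and Tfcp2l1 are described above. Tbx3, a T-box factor, was at 45.9 and 39.1 FPKM in 2i and 77 and 75.7 in 2i+LIF (log2 difference -0.83 ± 0.16, adjusted p = 0.00899), and Esrrb, an orphan nuclear receptor, at 182 and 155 FPKM in 2i and 244 and 229 in 2i+LIF (log2 difference -0.49 ± 0.11, adjusted p = 0.0178). The separation of the groups for Esrrb was small beside that for Klf4 or Gbx2. Klf2 was at 265 and 281 FPKM in 2i and 351 and 356 in 2i+LIF, with both 2i cultures lower, but missed the threshold (log2 difference -0.37 ± 0.12, adjusted p = 0.0619). The adjusted p rose above 0.05 for Tbx3 without replicate 1 of 2i+LIF (adjusted p = 0.0518), and Esrrb without replicate 2 of 2i or either replicate of 2i+LIF (adjusted p = 0.0595 to 0.0959).

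Core factors showed small differences that were not called. These were -0.20 ± 0.11, adjusted p = 0.246 for Nanog, -0.13 ± 0.11, adjusted p = 0.471 for Sox2, -0.11 ± 0.11, adjusted p = 0.529 for Pou5f1, -0.11 ± 0.11, adjusted p = 0.509 for Tcf7l1 (Tcf3) and -0.051 ± 0.087, adjusted p = 0.723 for Sall4. The reporter locus Zfp42 was at 203 and 190.3 FPKM in 2i and 217 and 193 in 2i+LIF (log2 difference -0.057 ± 0.091, adjusted p = 0.702, 95% interval -0.27 to 0.15). Replicate ranges of 2i and 2i+LIF overlapped for Nanog, Pou5f1, Sox2, Sall4 and Zfp42.

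**Figure D3:**
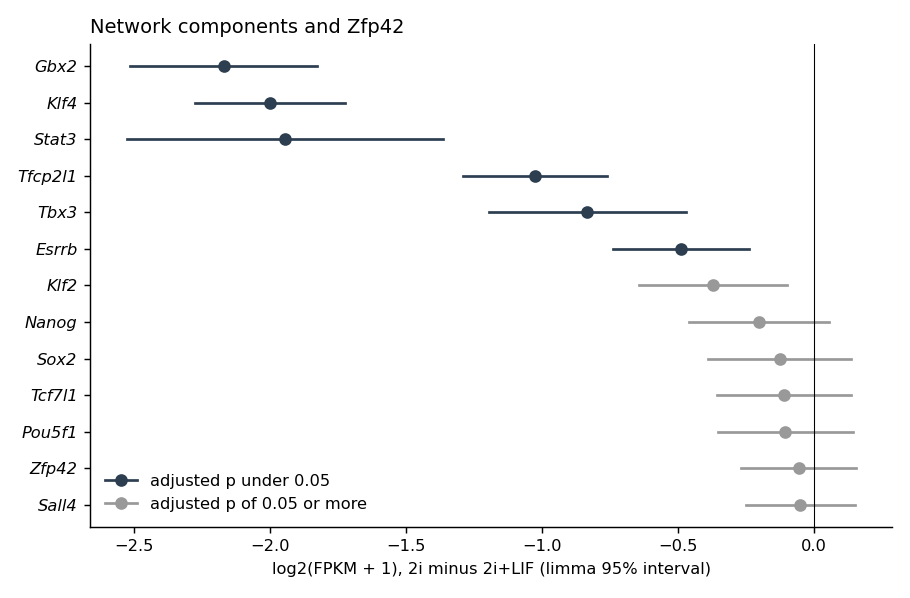
Log2 difference of 2i minus 2i+LIF (horizontal axis) with its 95% interval from limma for the 12 network components and Zfp42. Dark blue marks an adjusted p below 0.05, and Gbx2, Klf4 and Stat3 lie near -2, Tfcp2l1 near -1, and the others between -0.83 (Tbx3) and -0.05 (Sall4).

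Naïve markers outside the network changed in both directions, with 10 of 18 lower and 3 higher and a median log2 difference of -0.62. Without replicate 1 of 2i+LIF, 6 were lower, and without replicate 1 of 2i, 1 was higher. Tcl1, a co-activator of AKT, was at 54.1 and 36.7 FPKM in 2i and 149 and 135 in 2i+LIF (log2 difference -1.64 ± 0.18, adjusted p = 0.000978), and Dppa3 (Stella), a maternal factor that protects DNA methylation, at 24.1 and 15.3 FPKM in 2i and 66 and 47.9 in 2i+LIF (log2 difference -1.498 ± 0.22, adjusted p = 0.00329). Tdgf1 (Cripto), a co-receptor of Nodal, was at 112 and 70.4 FPKM in 2i and 218 and 185 in 2i+LIF (log2 difference -1.17 ± 0.22, adjusted p = 0.00847). Tet2, an enzyme that oxidises 5-methylcytosine, was at 6.7 and 7.05 FPKM in 2i and 15.9 and 16.1 in 2i+LIF (log2 difference -1.11 ± 0.099, adjusted p = 0.000356), and Fgf4 at 67.4 and 62.4 FPKM in 2i and 98.2 and 103 in 2i+LIF (log2 difference -0.63 ± 0.087, adjusted p = 0.00257). Prdm14 (-0.96 ± 0.20), Nr0b1 (-0.65 ± 0.12), Fbxo15 (-0.61 ± 0.13) and Jam2 (-0.73 ± 0.11) fell as well. The members that rose were the paired genes Dppa2 (1.15 ± 0.32) and Dppa4 (1.02 ± 0.14) and the adhesion molecule Pecam1 (0.46 ± 0.13). Alternatives ended the call of Tdgf1 without replicate 1 of 2i+LIF (adjusted p = 0.0568), Prdm14 without replicate 2 of 2i or replicate 1 of 2i+LIF (adjusted p = 0.0633 to 0.0926), and Nr0b1 without replicate 1 of 2i+LIF (adjusted p = 0.0544). In the alternative analyses, the call was lost for Fbxo15 without replicate 2 of 2i or either replicate of 2i+LIF (adjusted p = 0.0519 to 0.0764), Dppa2 without either replicate of 2i or replicate 2 of 2i+LIF (adjusted p = 0.0655 to 0.176) and under 4 of the 12 other alternatives (adjusted p = 0.0508 to 0.102), and Pecam1 without any 1 of the 4 cultures (adjusted p = 0.0635 to 0.191) and under 3 of the 12 other alternatives (adjusted p = 0.0605 to 0.0728).

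Genes of the formative and primed epiblast, the stages after the naïve state, were more often higher than lower in 2i. Of 16 tested, 9 rose and 2 fell, with a median log2 difference of 0.85, and 8 or 9 rose with any culture left out. Dnmt3a, a de novo DNA methyltransferase, was at 63.5 and 51.2 FPKM in 2i and 6.5 and 6.33 in 2i+LIF, 8.94-fold higher without LIF (log2 difference 2.97 ± 0.17, adjusted p = 6.55e-05). Its cofactor Dnmt3l was at 149.6 and 140.2 FPKM in 2i and 47.1 and 25.4 in 2i+LIF (log2 difference 2.03 ± 0.24, adjusted p = 0.0012). Dnmt3b, the other de novo enzyme, was at 42.5 and 66.5 FPKM in 2i and 35 and 33.4 in 2i+LIF (log2 difference 0.62 ± 0.19, adjusted p = 0.0589) and was not called.

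Otx2, a homeobox factor of the epiblast, was at 13.2 and 16.4 FPKM in 2i and 2.44 and 1.8 in 2i+LIF (log2 difference 2.34 ± 0.15, adjusted p = 8.24e-05). Lef1, a Wnt effector, was at 37.1 and 36.4 FPKM in 2i and 6.02 and 5.46 in 2i+LIF (log2 difference 2.49 ± 0.22, adjusted p = 0.000359), and Utf1, a chromatin-associated factor, at 279.6 and 263 FPKM in 2i and 90.7 and 65.5 in 2i+LIF (log2 difference 1.801 ± 0.17, adjusted p = 0.000395). The zinc finger gene Zic2 was at 102 and 89.4 FPKM in 2i and 37.5 and 30.4 in 2i+LIF (log2 difference 1.47 ± 0.16, adjusted p = 0.000778). For these 4 genes the lower of the 2i cultures was above the higher of the 2i+LIF cultures by at least 2.38-fold. Smaller increases were measured for Sox3 (1.11 ± 0.20) and Sox4 (1.02 ± 0.21). There were exceptions, as Etv4 and Foxd3 fell (Foxd3 at 9.22 and 9.08 FPKM in 2i and 21.9 and 17.8 in 2i+LIF, log2 difference -1.03 ± 0.15, adjusted p = 0.00305), and Fgf5, an early marker of exit from the naïve state, was at 0.311 and 0.281 FPKM in 2i and listed at 0 in 2i+LIF, below the filter. Pou3f1 (Oct6), a factor of the primed epiblast, stayed under 1 FPKM in the 4 cultures. Significance was lost for Sox4 without replicate 1 of 2i+LIF (adjusted p = 0.0759) and with only the 4 cultures fitted (adjusted p = 0.058).

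The summed FPKM of the formative and primed list was 776 and 743 in 2i and 349.9 and 270 in 2i+LIF. It was 921 and 952.5 in CH+LIF and 751 and 702 in LIF+PD, so that 2i+LIF was the low condition by this sum. Gene by gene, the levels in the other cultures did not follow a single pattern. Dnmt3l was at 157 and 156 FPKM in CH+LIF and 165 and 190.5 in LIF+PD, so that 2i+LIF was the low condition, and 2i was not called different from either (adjusted p = 0.774 and 0.413). Otx2 was at 2.15 and 2.11 FPKM in CH+LIF and 50.3 and 49.2 in LIF+PD, with 2i higher than CH+LIF (2.33 ± 0.15, adjusted p = 7.29e-05) and lower than LIF+PD (-1.69 ± 0.15, adjusted p = 0.000216). Lef1 was at 31.3 and 17.9 FPKM in CH+LIF and 4.52 and 4.97 in LIF+PD, and was higher in 2i than in LIF+PD (2.72 ± 0.22, adjusted p = 0.000161). Dnmt3a was at 21 and 17 FPKM in CH+LIF and 43.4 and 31.9 in LIF+PD, below 2i in both (1.54 ± 0.17, adjusted p = 0.000932 for CH+LIF and 0.60 ± 0.17, adjusted p = 0.039 for LIF+PD).

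**Figure D4:**
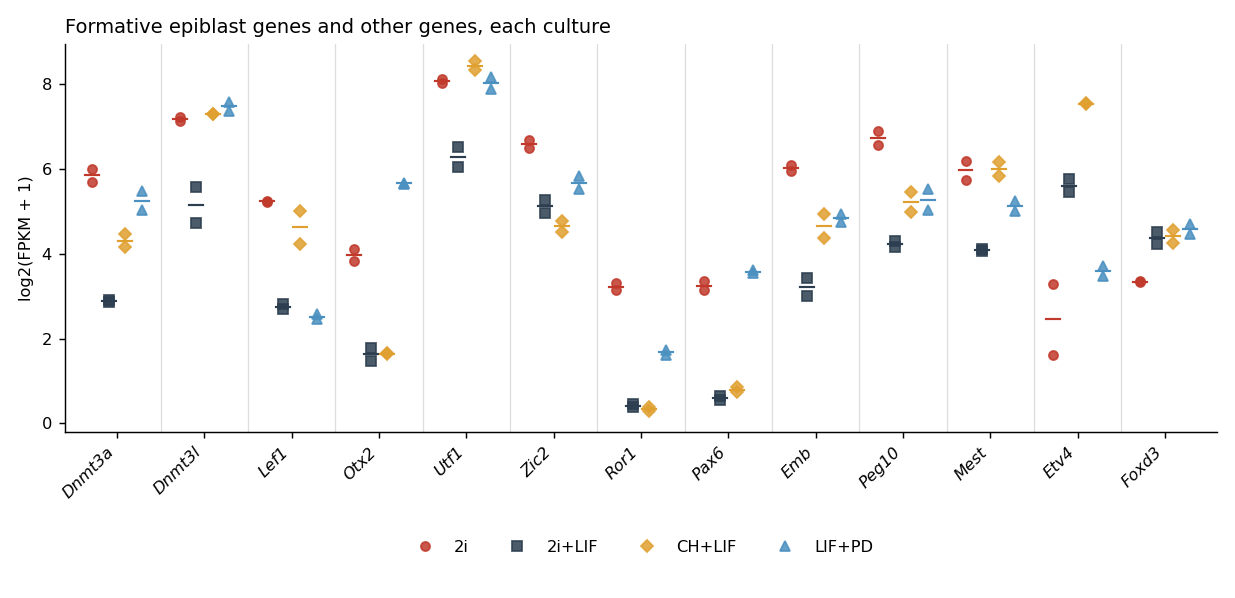
Levels of formative epiblast genes and of other genes of the text as log2(FPKM + 1) (vertical axis) in each of the 8 cultures. Symbols are cultures, coloured and shaped by condition, and short bars are the means of the 2 replicates. Both 2i cultures lie above both 2i+LIF cultures for the genes from Dnmt3a to Mest and below them for Etv4 and Foxd3, while CH+LIF and LIF+PD lie on either side depending on the gene.

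In the DNA methylation list, 3 of 14 genes rose (Dnmt3a, Dnmt3l and Tdg) and 2 fell (Tet2 and Uhrf1). The shares over all genes were 10.3% and 9.34%. Uhrf1, which guides the maintenance methyltransferase to replicated DNA, was at 144 and 176 FPKM in 2i and 293 and 293 in 2i+LIF (log2 difference -0.88 ± 0.11, adjusted p = 0.00169). Tdg, a thymine DNA glycosylase, was at 55.8 and 57.7 FPKM in 2i and 44.2 and 34.3 in 2i+LIF (log2 difference 0.53 ± 0.13, adjusted p = 0.0267). Of the 11 genes of Polycomb repressive complex 2, which methylates histone H3, 4 were higher (Rbbp7 0.76 ± 0.1, Jarid2 0.94 ± 0.22, Phf19 0.97 ± 0.16 and Ezh1 0.66 ± 0.17) and the cofactor Aebp2 was lower (-0.52 ± 0.093). The threshold was no longer passed by Tdg without either replicate of 2i or replicate 2 of 2i+LIF (adjusted p = 0.0757 to 0.13) and with no FPKM filter or with only the 4 cultures fitted (adjusted p = 0.0583 to 0.0649), Jarid2 without any 1 of the 4 cultures (adjusted p = 0.059 to 0.112) and with no FPKM filter (adjusted p = 0.0625), and Ezh1 without replicate 1 of 2i or either replicate of 2i+LIF (adjusted p = 0.106 to 0.136) and with no FPKM filter or with only the 4 cultures fitted (adjusted p = 0.0622 to 0.0695). The adjusted p rose above 0.05 for Aebp2 without replicate 2 of 2i+LIF (adjusted p = 0.0522).

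Imprinted genes, which are expressed from a single parental allele, were higher in 2i for 7 of 19 tested and lower for 1. Peg10, derived from a retrotransposon, was at 94.2 and 119 FPKM in 2i and 16.8 and 18.7 in 2i+LIF (log2 difference 2.51 ± 0.21, adjusted p = 0.000287), and Mest at 52.7 and 72.3 FPKM in 2i and 15.7 and 16.4 in 2i+LIF (log2 difference 1.88 ± 0.17, adjusted p = 0.000385). Sgce, the neighbour of Peg10, was at 10.9 and 11.1 FPKM in 2i and 4.68 and 1.83 in 2i+LIF (log2 difference 1.58 ± 0.29, adjusted p = 0.00857), with replicates of 2i+LIF that differed 2.56-fold. The cyclin-dependent kinase inhibitor Cdkn1c (1.14 ± 0.15), Snrpn (1.17 ± 0.12), Nnat (0.94 ± 0.19) and Peg3 (0.67 ± 0.19) rose by less. Phlda2, a placental growth regulator, was the member that fell, at 25.2 and 19.8 FPKM in 2i and 64.1 and 61 in 2i+LIF (log2 difference -1.45 ± 0.12, adjusted p = 0.000268). Alternatives ended the call of Nnat without replicate 2 of 2i or either replicate of 2i+LIF (adjusted p = 0.055 to 0.0646) and with a pseudocount of 5 (adjusted p = 0.061), and Peg3 without replicate 2 of 2i or either replicate of 2i+LIF (adjusted p = 0.0732 to 0.201) and under 6 of the 12 other alternatives (adjusted p = 0.0511 to 0.11).

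Lineage genes changed gene by gene and mostly at low levels. In the neural list, Pax6 was at 7.81 and 9.2 FPKM in 2i and 0.577 and 0.459 in 2i+LIF (log2 difference 2.64 ± 0.14, adjusted p = 5.27e-05), Sox3 rose, and Msi1, an RNA-binding protein of neural progenitors, fell from 27.1 and 28.7 to 11.5 and 10.1 FPKM (log2 difference -1.297 ± 0.15, adjusted p = 0.00108). Sox1, the defining marker of neural ectoderm, was at most 0.631 FPKM in the 4 cultures. In the mesoderm and endoderm list, T (Brachyury) was at 15.4 and 8.23 FPKM in 2i and 4.86 and 3.64 in 2i+LIF and Eomes at 5.58 and 2.85 FPKM in 2i and 1.63 and 1.43 in 2i+LIF, both higher in 2i, whereas Gsc (1.53 and 0.175 FPKM in 2i and 7.71 and 6.26 in 2i+LIF) and Kdr (-0.59 ± 0.16) were lower. The laminin genes were the changed members of the primitive endoderm list, Lamb1 up (1.52 ± 0.11) and Lama1 down (-1.79 ± 0.23), and Gata6, Sox17, Sox7, Pdgfra and Dab2 were each under 1 FPKM in these cultures. The 2-cell-like list had 1 tested gene, which was not called. In the alternative analyses, the call was lost for T without replicate 1 of 2i or either replicate of 2i+LIF (adjusted p = 0.0975 to 0.185) and under 6 of the 12 other alternatives (adjusted p = 0.0508 to 0.109), Eomes without replicate 1 of 2i or either replicate of 2i+LIF (adjusted p = 0.095 to 0.126) and with no FPKM filter or with only the 4 cultures fitted (adjusted p = 0.0787 to 0.0811), and Kdr without any 1 of the 4 cultures (adjusted p = 0.0744 to 0.159) and with a pseudocount of 5 or with only the 4 cultures fitted (adjusted p = 0.0584 to 0.0952).

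In the trophectoderm and keratin list, 3 of 10 fell and 2 rose, compared with 9.34% and 10.3% of all genes. The median log2 difference of the list was 0.25, and 7 members had a positive value. Krt8, a keratin of simple epithelia, was at 1.9 and 4.21 FPKM in 2i and 14.8 and 18.4 in 2i+LIF (log2 difference -2.17 ± 0.30, adjusted p = 0.00246), Id2 fell by 1.32 on the log2 scale and Tead4 by 0.95, and Ascl2 (1.29 ± 0.35) rose together with Eomes. Unlike Krt8, the keratin Krt18 was at 1.8 and 2.63 FPKM in 2i and 0.973 and 1.23 in 2i+LIF. It was not called (log2 difference 0.60 ± 0.19, adjusted p = 0.062), and neither was Krt19 (0.081 ± 0.31). Cdx2, a defining trophectoderm factor, was at 12.2 and 10.6 FPKM in 2i and 10.2 and 7.91 in 2i+LIF and was not among the called genes. Germline genes were higher for 5 of 11, and for 3 without replicate 1 of 2i+LIF. Ddx4 (Vasa), an RNA helicase of germ cells, was at 6.34 and 6.02 FPKM in 2i and 1.08 and 1.17 in 2i+LIF (log2 difference 1.76 ± 0.17, adjusted p = 0.000572). Sycp3, a protein of the synaptonemal complex, was at 8.84 and 7 FPKM in 2i and 2.34 and 1.87 in 2i+LIF (log2 difference 1.52 ± 0.24, adjusted p = 0.00436), and Mael, a factor of the piRNA pathway, at 5.21 and 6.54 FPKM in 2i and 1.67 and 1.76 in 2i+LIF (log2 difference 1.33 ± 0.16, adjusted p = 0.00147). Nanos3 (1.27 ± 0.36) and Prdm1 (0.83 ± 0.21) rose, and Dazl fell (-1.17 ± 0.20). Of the fibroblast markers, Thy1 (1.4 and 3.44 FPKM in 2i and 0.117 and 0.16 in 2i+LIF) rose and Vim, an intermediate filament also present in ESCs, fell (219.6 and 294 FPKM in 2i and 608 and 573 in 2i+LIF). Significance was lost for Ascl2 without replicate 2 of 2i or either replicate of 2i+LIF (adjusted p = 0.0756 to 0.168) and under 3 of the 12 other alternatives (adjusted p = 0.0546 to 0.0983), Nanos3 without replicate 1 of 2i or either replicate of 2i+LIF (adjusted p = 0.0598 to 0.205) and under 6 of the 12 other alternatives (adjusted p = 0.0541 to 0.109), and Prdm1 without any 1 of the 4 cultures (adjusted p = 0.0829 to 0.12) and with no FPKM filter (adjusted p = 0.0688).

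Signalling genes outside JAK-STAT also changed. PD was present in all 4 cultures, and in the ERK feedback and ETV list 4 of 12 were lower and 1 was higher in 2i. The ETS factor Etv4 was at 8.84 and 2.06 FPKM in 2i and 53 and 43 in 2i+LIF, and the replicates of 2i differed 4.29-fold (log2 difference -3.15 ± 0.45, adjusted p = 0.00279). It was at 184 and 188 FPKM in CH+LIF, where the MEK inhibitor was absent. Spry2, a feedback inhibitor of receptor tyrosine kinases, was at 12.3 and 11.3 FPKM in 2i and 35.6 and 33.6 in 2i+LIF (log2 difference -1.48 ± 0.098, adjusted p = 0.000107). Etv1 (-1.42 ± 0.22) and Spry4 (-0.83 ± 0.22) fell, and the phosphatase Dusp4 rose (1.23 ± 0.20). Among 11 immediate-early genes, Junb, Ier2 (-0.49 ± 0.13) and Ier3 (-0.82 ± 0.13) were lower and none was higher. The threshold was no longer passed by Spry4 without either replicate of 2i or replicate 1 of 2i+LIF (adjusted p = 0.0514 to 0.167) and under 3 of the 12 other alternatives (adjusted p = 0.0869 to 0.111), and Ier2 without any 1 of the 4 cultures (adjusted p = 0.0521 to 0.154) and with no FPKM filter or without the trend (adjusted p = 0.0548 to 0.0652).

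Wnt targets moved both ways, 5 up and 3 down of 13, compared with 10.3% and 9.34% of all genes. Sp5, a direct target of beta-catenin, was at 28.6 and 21.9 FPKM in 2i and 69.5 and 62.3 in 2i+LIF (log2 difference -1.36 ± 0.15, adjusted p = 0.000978), opposite to Lef1, and Ccnd1 (cyclin D1) was at 108 and 131 FPKM in 2i and 66.6 and 67.6 in 2i+LIF (log2 difference 0.82 ± 0.11, adjusted p = 0.00182). Rnf43 (0.89 ± 0.25), T and Nodal (0.76 ± 0.12) were higher, and Apcdd1 (-0.87 ± 0.14) and Notum (-0.57 ± 0.12) were lower. In the Nodal and TGF-beta list, 4 of 14 rose, among them Skil at 18.5 and 13.3 FPKM in 2i and 4.34 and 3.73 in 2i+LIF, Smad3 (0.83 ± 0.15) and Nodal. Tdgf1 and the activin antagonist Fst (-1.69 ± 0.21) fell. The adjusted p rose above 0.05 for Rnf43 without either replicate of 2i or replicate 1 of 2i+LIF (adjusted p = 0.06 to 0.22) and under 6 of the 12 other alternatives (adjusted p = 0.0524 to 0.101), Notum without replicate 2 of 2i or either replicate of 2i+LIF (adjusted p = 0.0516 to 0.0754), and Smad3 without replicate 2 of 2i+LIF (adjusted p = 0.0567).

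BMP genes gave 2 increases (Smad1 0.48 ± 0.14 and Dusp9 0.98 ± 0.17) and 3 decreases (Id1 -1.19 ± 0.30, Id2 and Smad6 -0.60 ± 0.15) among 12. The shares over all genes were 10.3% and 9.34%. In the FGF list, Fgfbp1, a carrier protein of FGFs, was at 45.6 and 54.9 FPKM in 2i and 7.93 and 6.37 in 2i+LIF (log2 difference 2.65 ± 0.13, adjusted p = 3.48e-05). The receptors Fgfr2 (1.24 ± 0.23) and Fgfr1 (0.51 ± 0.12) rose, and the ligands Fgf3 (0.456 and 0.466 FPKM in 2i and 5.45 and 5.16 in 2i+LIF, log2 difference -2.11 ± 0.16, adjusted p = 0.000192), Fgf10 (-1.601 ± 0.18) and Fgf4 fell. Alternatives ended the call of Smad1 without any 1 of the 4 cultures (adjusted p = 0.111 to 0.187) and under 5 of the 12 other alternatives (adjusted p = 0.0537 to 0.0781), Id1 without any 1 of the 4 cultures (adjusted p = 0.0502 to 0.121) and with a pseudocount of 5 or with no FPKM filter (adjusted p = 0.0806 to 0.119), and Smad6 without any 1 of the 4 cultures (adjusted p = 0.0683 to 0.132) and with no FPKM filter or with only the 4 cultures fitted (adjusted p = 0.0556 to 0.0589). In the alternative analyses, the call was lost for Fgfr2 without replicate 2 of 2i+LIF (adjusted p = 0.0562), and Fgfr1 without replicate 2 of 2i or either replicate of 2i+LIF (adjusted p = 0.074 to 0.101) and with only the 4 cultures fitted (adjusted p = 0.0618).

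Lysosomal genes were lower in 2i for 10 of 22 and higher for 2, with a median log2 difference of -0.50, and 9 to 11 were lower with any culture left out. The summed FPKM of the list was 1227 and 1085 in 2i and 1612 and 1685 in 2i+LIF. It was 1020 and 1062 in CH+LIF and 958 and 978 in LIF+PD, so that 2i+LIF was the high condition by this sum. Tfeb, a master regulator of lysosomal genes, was at 10.2 and 10.1 FPKM in 2i and 44.1 and 40.7 in 2i+LIF (log2 difference -1.96 ± 0.096, adjusted p = 3.11e-05), and was at 47.9 and 47 FPKM in CH+LIF and 39.1 and 34.6 in LIF+PD. Ctsc (cathepsin C) was at 5.64 and 3.46 FPKM in 2i and 19 and 18.9 in 2i+LIF (log2 difference -1.87 ± 0.18, adjusted p = 0.000497), and Glb1 (beta-galactosidase) at 24.4 and 20 FPKM in 2i and 47 and 45.1 in 2i+LIF (log2 difference -1.03 ± 0.14, adjusted p = 0.00207). Ctsc was at 18.2 and 17.8 FPKM in CH+LIF and 1.17 and 1.11 in LIF+PD. Glb1 was at 26.9 and 23.1 FPKM in CH+LIF and 49 and 40.7 in LIF+PD. Further decreases were those of Fnip2 (-1.17 ± 0.15), Hexa (-0.98 ± 0.15), Ctsb (-0.94 ± 0.099), Ctsa (-0.92 ± 0.12), Lamp1 (-0.70 ± 0.091), Npc2 (-0.59 ± 0.11) and Lamp2 (-0.57 ± 0.093). The factor Tfe3 (0.39 ± 0.10) and Ctsz (0.50 ± 0.099) rose. Significance was lost for Npc2 without replicate 2 of 2i+LIF (adjusted p = 0.0596), Tfe3 without either replicate of 2i or replicate 2 of 2i+LIF (adjusted p = 0.0622 to 0.164) and under 3 of the 12 other alternatives (adjusted p = 0.0546 to 0.0885), and Ctsz without replicate 1 of 2i or replicate 2 of 2i+LIF (adjusted p = 0.0571 to 0.0713).

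Cholesterol and fatty acid synthesis genes were higher for 8 of 23 and lower for none, with a median log2 difference of 0.29, but the count was 3 without replicate 1 of 2i+LIF. Lss, an enzyme of the sterol pathway, was at 68.8 and 59.95 FPKM in 2i and 30.1 and 39.2 in 2i+LIF (log2 difference 0.88 ± 0.15, adjusted p = 0.00556). Acaca, which makes malonyl-CoA, rose by 0.65 ± 0.12. In glycolysis, 4 of 23 rose and 4 fell, compared with 10.3% and 9.34% of all genes. Pdk1, which inhibits pyruvate dehydrogenase, was at 113 and 99.7 FPKM in 2i and 30.2 and 17.2 in 2i+LIF (log2 difference 2.17 ± 0.26, adjusted p = 0.00134), and hexokinase Hk2 at 32.1 and 25.5 FPKM in 2i and 84 and 72.1 in 2i+LIF (log2 difference -1.41 ± 0.12, adjusted p = 0.000329). Aldoc fell (-1.05 ± 0.23) and Pfkfb3 rose (1.09 ± 0.28). The threshold was no longer passed by Acaca without replicate 1 of 2i+LIF (adjusted p = 0.0507), Aldoc without replicate 2 of 2i or replicate 1 of 2i+LIF (adjusted p = 0.0789 to 0.0943) and with no FPKM filter (adjusted p = 0.0514), and Pfkfb3 without replicate 1 of 2i or replicate 2 of 2i+LIF (adjusted p = 0.143 to 0.165) and with no FPKM filter or with only the 4 cultures fitted (adjusted p = 0.0527 to 0.0857).

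Few genes of respiration and translation were called. None of the 11 mitochondrially encoded proteins was called by limma (2 were lower and 0 higher at an unadjusted p below 0.05), and their median was -0.17. Under TPM, with or without mitochondrial genes, and size factors this median was between -0.21 and -0.11, and quantile normalization, which makes the highest ranks equal in all cultures, gives no value to compare. Of 78 nuclear oxidative phosphorylation genes 2 rose and 4 fell, shares below those of all genes (10.3% and 9.34%), and the counts were 0 with the culture left out that lowered each most (replicate 1 of 2i for the rises and replicate 2 of 2i for the falls). Of 83 ribosomal protein genes 7 fell, a share below that of all genes, and 1 fell without replicate 2 of 2i. The median of the ribosomal protein genes was -0.21, 74 of the 83 had a negative log2 difference, and 26 were lower and 0 higher at an unadjusted p below 0.05. With no FPKM filter 1 of them fell, and with the replicate block 13. Rpl39l, a paralogue with restricted expression, was at 25.2 and 23.1 FPKM in 2i and 51.1 and 50.9 in 2i+LIF (log2 difference -1.05 ± 0.096, adjusted p = 0.000388).

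The medians of the cell cycle and stress lists were small, from -0.046 (G1 genes) to 0.23 (p53 targets), but single members changed by more. Of all genes, 10.3% were higher and 9.34% lower. Among 18 G1 genes 6 rose and 4 fell, with 1 of the falls left without replicate 1 of 2i+LIF, and Cdkn2a, which encodes p16 and p19, was at 73.7 and 60.9 FPKM in 2i and 40.7 and 32.6 in 2i+LIF (log2 difference 0.86 ± 0.15, adjusted p = 0.00618). Rb1 rose (1.49 ± 0.34). Of 17 p53 targets 5 rose and none fell, or 3 without replicate 2 of 2i. The stress-induced Sesn2 was at 85.7 and 89.3 FPKM in 2i and 49 and 53.5 in 2i+LIF (log2 difference 0.76 ± 0.10, adjusted p = 0.00219) and Zmat3 at 22.2 and 23.7 FPKM in 2i and 11.4 and 13.1 in 2i+LIF (log2 difference 0.85 ± 0.11, adjusted p = 0.00151). In the ATF4 list, 5 of 19 rose, 2 of them without replicate 2 of 2i. Ddit4, an inhibitor of mTORC1, was at 23.9 and 20 FPKM in 2i and 9.83 and 10.1 in 2i+LIF (log2 difference 1.06 ± 0.12, adjusted p = 0.000853) and Trib3 fell (-0.98 ± 0.17). The BCL2 family (Pmaip1 0.72 ± 0.20 and Bid -0.88 ± 0.11 of 13) and the MYC network (Mlxip 0.95 ± 0.20 and Mycl -0.90 ± 0.18 of 12) each had a single rise and a single fall, shares below those of all genes (10.3% and 9.34%). The adjusted p rose above 0.05 for Rb1 without replicate 2 of 2i or either replicate of 2i+LIF (adjusted p = 0.0615 to 0.103) and with no FPKM filter (adjusted p = 0.0623), Pmaip1 without any 1 of the 4 cultures (adjusted p = 0.0501 to 0.143) and with a pseudocount of 5 or with only the 4 cultures fitted (adjusted p = 0.0768 to 0.0783), and Mlxip without replicate 2 of 2i or either replicate of 2i+LIF (adjusted p = 0.0553 to 0.0745). Alternatives ended the call of Mycl without replicate 2 of 2i or replicate 1 of 2i+LIF (adjusted p = 0.0533 to 0.0758).

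Cell surface and matrix genes included B2m, the light chain of MHC class I, at 15.7 and 13.6 FPKM in 2i and 52.9 and 54.3 in 2i+LIF (log2 difference -1.805 ± 0.11, adjusted p = 6.55e-05). In the interferon and MHC list 4 of 12 fell, among them B2m, Irf9 (-0.87 ± 0.20) and Ly6e (-0.46 ± 0.11), and 1 fell without replicate 1 of 2i+LIF. Col18a1, a collagen of basement membranes, was at 124 and 134 FPKM in 2i and 26.7 and 24 in 2i+LIF (log2 difference 2.304 ± 0.095, adjusted p = 2.14e-05). Among 20 matrix genes, Lamb1 and Itga9 (1.59 ± 0.32) rose with it, and Lama1, Lamc1 (-1.09 ± 0.09) and Itgb5 (-0.76 ± 0.20) fell. The shares over all genes were 10.3% higher and 9.34% lower. In the actomyosin list, Tpm2, a tropomyosin, was at 17.3 and 15.3 FPKM in 2i and 2.36 and 2.74 in 2i+LIF (log2 difference 2.29 ± 0.17, adjusted p = 0.000181), Myl9 (1.61 ± 0.27), Srf (0.52 ± 0.11) and Vcl (0.37 ± 0.11) rose and Cyr61 fell (-0.86 ± 0.17). In the alternative analyses, the call was lost for Irf9 without replicate 1 of 2i or replicate 1 of 2i+LIF (adjusted p = 0.0853 to 0.112) and with no FPKM filter (adjusted p = 0.0534), Ly6e without replicate 2 of 2i or replicate 1 of 2i+LIF (adjusted p = 0.1 to 0.129) and with only the 4 cultures fitted (adjusted p = 0.0609), and Itga9 without replicate 1 of 2i+LIF (adjusted p = 0.0702). Significance was lost for Itgb5 without replicate 1 of 2i or either replicate of 2i+LIF (adjusted p = 0.0917 to 0.156) and under 4 of the 12 other alternatives (adjusted p = 0.0563 to 0.0829), Myl9 with a pseudocount of 5 (adjusted p = 0.112), and Srf without replicate 2 of 2i or replicate 2 of 2i+LIF (adjusted p = 0.0527 to 0.0851). The threshold was no longer passed by Vcl without any 1 of the 4 cultures (adjusted p = 0.0745 to 0.216) and under 7 of the 12 other alternatives (adjusted p = 0.0508 to 0.104), and Cyr61 without replicate 1 of 2i or either replicate of 2i+LIF (adjusted p = 0.0547 to 0.0659).

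In the lists of STAT3 targets, network components, immediate-early genes and ribosomal proteins, limma called 0 genes higher in 2i, and 0 were higher at an unadjusted p below 0.05. The p53 targets and the cholesterol and fatty acid genes likewise had 0 lower genes at an unadjusted p below 0.05.

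**Figure D5:**
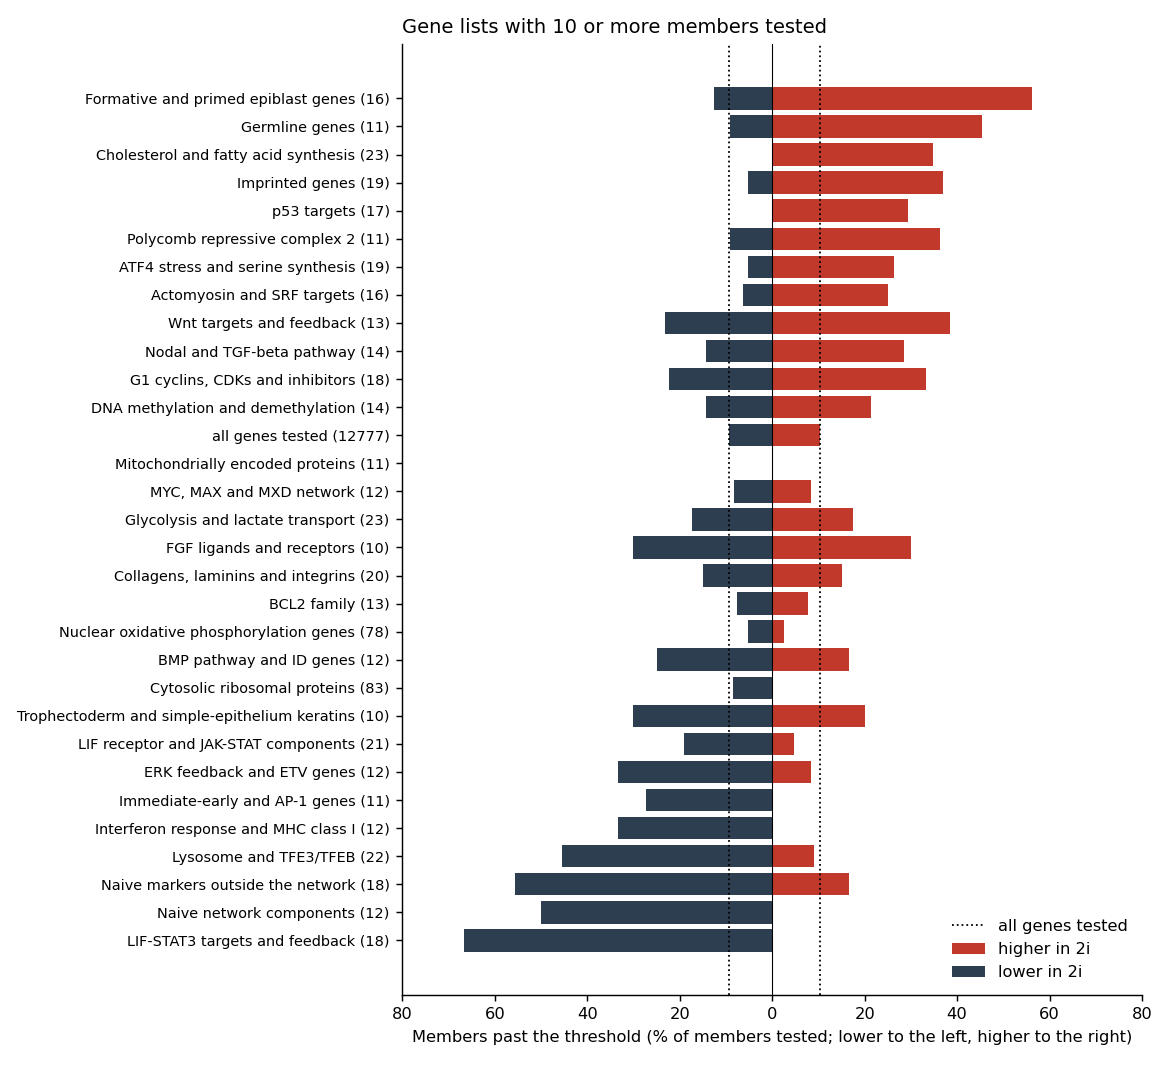
Share of the tested members of each list that were higher (red, to the right) or lower (dark blue, to the left) in 2i at an adjusted p below 0.05, for lists with at least 10 members tested, with the number tested in brackets. The dotted lines mark the shares over all genes, 10.3% higher and 9.34% lower. The LIF-STAT3 targets, with 12 of 18 lower, and the formative epiblast genes, with 9 of 16 higher, stand at the ends.

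Outside the lists, the genes with the largest changes were read by a rule that asked for an FPKM of at least 5 in 1 group and no overlap. The 15 largest decreases ran from -4.65 (Socs3) to -3.39 (Susd2), and each was called under all 16 alternatives. The non-coding 2310043M15Rik was at 1.59 and 1.23 FPKM in 2i and 57.2 and 56.6 in 2i+LIF (log2 difference -4.59 ± 0.12, adjusted p = 4.44e-06). It lies opposite to Dopey2, and the strand setting behind the FPKM values is not given in the sources used here, so that reads of the 2 genes may not have been told apart. Ly6a (Sca-1), a cell surface protein, was at 0.882 and 1.06 FPKM in 2i and 41.1 and 38.3 in 2i+LIF (log2 difference -4.37 ± 0.18, adjusted p = 2.14e-05). It was also at 0.503 and 0.611 FPKM in CH+LIF and at 9.08 and 13.5 in LIF+PD, so that 2i+LIF was the high condition.

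Crxos1, a homeobox gene, was at 8.06 and 7.37 FPKM in 2i and 183 and 157 in 2i+LIF (log2 difference -4.29 ± 0.24, adjusted p = 5.94e-05), and was at 31.6 and 19.4 FPKM in CH+LIF and 21.7 and 14.4 in LIF+PD. Ly6g6e was at 3.5 and 2.37 FPKM in 2i and 52.8 and 64.6 in 2i+LIF (log2 difference -3.93 ± 0.16, adjusted p = 2.14e-05), and the serine protease inhibitor Serpinb6c at 0.16 and 0.0824 FPKM in 2i and 13.5 and 17.1 in 2i+LIF (log2 difference -3.85 ± 0.16, adjusted p = 2.14e-05). Reads of Ly6 and Serpinb genes can match near-identical copies, so that their values are uncertain. Like 2310043M15Rik, the genes Ly6g6e, Grin1 and Pmel overlap a gene on the other strand (Ly6g6d, E130003G02Rik and Dgka). Bcl3 overlaps Gm16174 and Gm16175 in the same way. Outside the largest decreases this also holds for other named genes, among them Gbx2 (D130058E05Rik), Tbx3 (Gm2301) and B2m (Patl2). There too, reads of the overlapping genes may not have been told apart. Xaf1, an antagonist of XIAP, was at 3.81 and 1.79 FPKM in 2i and 43.1 and 58.9 in 2i+LIF (log2 difference -3.81 ± 0.26, adjusted p = 0.000116). Slc52a3, a riboflavin transporter, was at 0.674 and 0.925 FPKM in 2i and 21.9 and 19.8 in 2i+LIF (log2 difference -3.603 ± 0.15, adjusted p = 2.24e-05), and Grin1, a subunit of the NMDA receptor, at 2.71 and 1.61 FPKM in 2i and 32.6 and 41.5 in 2i+LIF (log2 difference -3.602 ± 0.21, adjusted p = 6.55e-05).

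The enzyme Bhmt, which methylates homocysteine with betaine, was at 0.173 and 0.356 FPKM in 2i and 15.8 and 12.8 in 2i+LIF (log2 difference -3.59 ± 0.21, adjusted p = 6.55e-05). Pmel, a melanosome protein, was at 1.3 and 1.15 FPKM in 2i and 23.6 and 23.4 in 2i+LIF (log2 difference -3.46 ± 0.10, adjusted p = 5.49e-06), and Susd2, a membrane protein, at 1.79 and 2.25 FPKM in 2i and 27.3 and 34.1 in 2i+LIF (log2 difference -3.39 ± 0.17, adjusted p = 3.71e-05). The calcium-binding S100a1 was at 1.54 and 1.78 FPKM in 2i and 21.8 and 35.3 in 2i+LIF (log2 difference -3.44 ± 0.29, adjusted p = 0.000279), and S100a13 at 4.29 and 0.92 FPKM in 2i and 36.7 and 49.1 in 2i+LIF (log2 difference -3.77 ± 0.46, adjusted p = 0.00144), with replicates of 2i that differed over 4-fold. For S100a1 and S100a13, 2i was not called different from CH+LIF (-0.44 ± 0.29, adjusted p = 0.296 and 0.21 ± 0.46, adjusted p = 0.772). By contrast, 2i was lower than CH+LIF for Pmel (-2.796 ± 0.10, adjusted p = 1.22e-05), for Susd2 (-2.39 ± 0.17, adjusted p = 0.000138) and for Slc52a3 (-2.37 ± 0.15, adjusted p = 7.44e-05).

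The 15 largest increases had log2 differences of at least 2.51 (Peg10). Emb (embigin), a membrane glycoprotein, was at 61.2 and 68 FPKM in 2i and 9.84 and 6.99 in 2i+LIF (log2 difference 2.82 ± 0.21, adjusted p = 0.000156). Ror1, a receptor of Wnt ligands, was at 7.82 and 8.9 FPKM in 2i and 0.304 and 0.365 in 2i+LIF (log2 difference 2.81 ± 0.16, adjusted p = 5.27e-05). For Emb and Ror1 both 2i cultures were above every other culture, and 2i was higher than CH+LIF and LIF+PD for Ror1 (2.89 ± 0.16, adjusted p = 3.85e-05 and 1.55 ± 0.16, adjusted p = 0.000381).

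Ina, a neurofilament protein, was at 23.6 and 29 FPKM in 2i and 3.93 and 3.53 in 2i+LIF (log2 difference 2.52 ± 0.14, adjusted p = 5.27e-05). Slc7a7, an amino acid transporter, was at 25.4 and 20.6 FPKM in 2i and 3.73 and 1.64 in 2i+LIF (log2 difference 2.76 ± 0.31, adjusted p = 0.000956). Vrtn, known for its role in vertebral number, was at 5.69 and 6.45 FPKM in 2i and 0.0946 and 0 in 2i+LIF (log2 difference 2.75 ± 0.19, adjusted p = 0.000127), Lrrk2, a kinase, at 8.82 and 13.4 FPKM in 2i and 0.807 and 0.941 in 2i+LIF (log2 difference 2.67 ± 0.26, adjusted p = 0.00053), and Enpp3, an ectoenzyme, at 9.16 and 10.4 FPKM in 2i and 0.716 and 0.809 in 2i+LIF (log2 difference 2.61 ± 0.14, adjusted p = 5.27e-05). Ina and Enpp3 were not called different between 2i and LIF+PD (adjusted p = 0.0785 and 0.0789). Naaa, a lysosomal amidase, was at 48.7 and 16.4 FPKM in 2i and 4.5 and 2.97 in 2i+LIF (log2 difference 2.65 ± 0.59, adjusted p = 0.0183), with replicates of 2i that differed 2.97-fold, and Gm19705 was at 13.3 and 12.1 FPKM in 2i and 0.191 and 3.55 in 2i+LIF (log2 difference 2.55 ± 0.52, adjusted p = 0.0126), with replicates of 2i+LIF that differed over 4-fold. The adjusted p rose above 0.05 for Naaa without replicate 1 of 2i or either replicate of 2i+LIF (adjusted p = 0.0583 to 0.0978) and with no FPKM filter (adjusted p = 0.0612), and Gm19705 without replicate 1 of 2i (adjusted p = 0.0546) and with only the 4 cultures fitted (adjusted p = 0.0538).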

How the data were processed

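RNA of 8 mouse ESC cultures was sequenced, and the FPKM values deposited by the authors cover each culture separately. In the methods, single-end reads were aligned with tophat2 to mm10 with Ensembl 75 annotation and uniquely mapped reads were kept, and the submitters' processing notes name TopHat2, Cufflinks and Cuffdiff without versions. The program and parameters behind the FPKM values are not given in the sources used here, and the counts of the methods were not used here. The methods describe rRNA-depleted RNA and the labels polyA RNA. Rows were summed by Ensembl identifier (22 of 39013 repeated one), genes under 300 bases were left out (150 of them passed the FPKM filter), and starts were raised by 1 to be 1-based.

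Values were compared as log2(FPKM + 1) by limma 3.58.1 (trend fitted, R 4.3.3) in 1 fit of the 4 groups, which gave 2i minus 2i+LIF, and, for named genes, 2i minus CH+LIF and 2i minus LIF+PD. These comparisons share the 2i cultures. Members and lists were chosen with earlier results of these data known. Named were the 4 marker genes, the network components, Zfp42, all JAK-STAT components and targets, up to 4 called members per other list, and the 15 largest changes each way. Some named genes are not reported here. Other list members and neighbouring runs were named after their values were seen. Same-numbered cultures were not paired. Figures were drawn with matplotlib 3.10.9 in Python 3.11.15.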

Additional observations from a re-analysis of the deposited data

How the results depend on the processing

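The tested alternatives were pseudocounts of 0.1 and 5, no FPKM filter or a minimum of 5, genes under 300 bases kept, rescaling to TPM (with and without mitochondrial genes), quantile normalization, median-of-ratios size factors, a fit of only the 4 cultures compared, no trend, a replicate block and leaving out each culture. With a culture left out, its group kept 1 culture, which was assumed to vary like the others, and counts of calls were 637 to 931 for genes higher and 677 to 904 for genes lower in 2i, compared with 1322 and 1193. The lowest counts came without replicate 2 of 2i+LIF. Under the other alternatives they ranged from 891 (only the 4 cultures) to 1670 (TPM) higher and from 871 (only the 4 cultures) to 1311 (size factors) lower. No called gene that was named changed direction, and of the 134 named calls 102 to 114 were kept with a culture left out, 111 with no FPKM filter and 116 with only the 4 cultures fitted, and at most 7 were lost under any other alternative. With no FPKM filter, and likewise with only the 4 cultures fitted, the mesoderm and trophectoderm lists had 0 members higher in place of 2, the Wnt list 3 in place of 5, and the interferon list 2 lower in place of 4. The labels number the replicates without a shared batch or day, and deviations of same-numbered cultures of 2i and 2i+LIF had a correlation of 0.133 (0.0362 to 0.138 over all pairs of groups). With the replicate block, 1418 genes were higher and 1295 lower, and all 134 named calls were kept.

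Genes that were not called changed sign in places, and the cause was not tested. After quantile normalization Pou5f1 had a log2 difference of 0.038 and Lifr of -0.025. With TPM, Sall4 was at 0.0086 and Zfp42 at 0.0022. With each culture left out the values ranged over -0.11 to 0.013 for Sall4, -0.14 to 0.029 for Zfp42, -0.045 to 0.12 for Lifr, -0.26 to 1.19 for Il6st, -0.22 to 0.049 for Stat2, -0.17 to 0.37 for Socs2, -0.62 to 0.24 for mt-Atp6 and -0.41 to 0.073 for mt-Co2. With 2 cultures per group and no read numbers, no smallest detectable difference is given, and the shallowest culture was replicate 1 of 2i.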

Other observations

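Genes that lie next to each other moved together in places. After the values had been seen, runs of at least 3 neighbouring tested genes that were all called, with a log2 difference of at least 1 in the same direction, were counted, and there were 8 runs that were lower and 4 that were higher in 2i. The longest was the Serpinb cluster of chromosome 13, which encodes serine protease inhibitors. All 6 of its tested genes fell, but the rule for a run asks for a single direction. Of the 29 Serpinb genes in the deposited values, 6 were tested. Serpinb1b and Serpinb6b reached an FPKM of 1 only in the 2i+LIF cultures, so they were tested only because they were high there. Serpinb1a was at 1.1 and 0.74 FPKM in 2i and 15.3 and 14.1 in 2i+LIF (log2 difference -3.04 ± 0.23, adjusted p = 0.000164) and Serpinb6a at 12.4 and 11.6 FPKM in 2i and 38.7 and 36.5 in 2i+LIF (log2 difference -1.57 ± 0.11, adjusted p = 0.000127), while Serpinb6b was listed at 0 in both 2i cultures and at 1.35 and 1.34 FPKM in 2i+LIF. Near-identical members of the family can share reads.

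Another run on chromosome 13 held genes of betaine metabolism, where Bhmt fell together with Bhmt2 (2.29 and 1.55 FPKM in 2i and 10.1 and 8.48 in 2i+LIF, log2 difference -1.82 ± 0.19, adjusted p = 0.000778) and Dmgdh, dimethylglycine dehydrogenase (6.28 and 6.01 FPKM in 2i and 31.8 and 28.3 in 2i+LIF, log2 difference -2.12 ± 0.12, adjusted p = 5.29e-05). Dmgdh was at 8.31 and 9.19 FPKM in CH+LIF and 2.23 and 2.37 in LIF+PD. Bhmt2 was at 1.82 and 2.53 FPKM in CH+LIF and 1.1 and 0.916 in LIF+PD. Bhmt was at 0.646 and 1.275 FPKM in CH+LIF and 5.81 and 7.51 in LIF+PD. For each of these genes 2i+LIF was the highest condition, and 2i was not the lowest for Dmgdh and Bhmt2. On chromosome 15, all 4 tested Hoxc genes fell, with Hoxc13 at 0.87 and 1.39 FPKM in 2i and 12.3 and 13.5 in 2i+LIF (log2 difference -2.72 ± 0.18, adjusted p = 0.0001) and Hoxc4 at 1.21 and 1.51 FPKM in 2i and 5.58 and 5.99 in 2i+LIF (log2 difference -1.52 ± 0.18, adjusted p = 0.00129), and Hoxc12 listed at 0 in both 2i cultures and at 4.24 and 5.15 FPKM in 2i+LIF. Hoxc4 was at 2.51 and 3.52 FPKM in CH+LIF and 0.604 and 0.391 in LIF+PD, where it was below 2i. Hoxc13 was at 4.54 and 6.25 FPKM in CH+LIF and 8.83 and 9.44 in LIF+PD. Of the 9 Hoxc genes in the deposited values, 4 were tested. Hoxc10 reached an FPKM of 1 only in the 2i+LIF cultures (1.93 and 1.62), so it was tested only because it was high there. Hoxa7 and Hoxb9 were not called.

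Gjb5, a connexin, was at 1.65 and 2.49 FPKM in 2i and 27.6 and 33.4 in 2i+LIF (log2 difference -3.36 ± 0.23, adjusted p = 0.000113). It was at 23.6 and 32.5 FPKM in CH+LIF and 22.9 and 32.5 in LIF+PD. On chromosome 1, Eya1, a phosphatase and transcriptional co-activator, was at 0.209 and 0.242 FPKM in 2i and 9.17 and 11.3 in 2i+LIF (log2 difference -3.19 ± 0.15, adjusted p = 2.88e-05), beside Msc (1.42 and 1.22 FPKM in 2i and 15.1 and 12.6 in 2i+LIF, log2 difference -2.67 ± 0.19, adjusted p = 0.00013). Cbx8 (-2.06 ± 0.23), a subunit of Polycomb repressive complex 1, was in a run on chromosome 11. It was at 1.66 and 1.13 FPKM in 2i, 0.473 and 0.067 in CH+LIF and 6.88 and 10.4 in LIF+PD. Among the runs that rose was that of Casd1 (1.196 ± 0.20) with the imprinted Sgce and Peg10.

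On the X chromosome, 85 of 456 tested genes (18.6%) were higher in 2i, compared with 10.3% of all genes, and 8.99% were lower, compared with 9.34%. On each autosome the share that was higher lay between 8.0% and 12.6%. With each culture left out in turn, the share on the X chromosome was 9.21% to 14.3%, compared with 4.99% to 7.29% of all genes. Within the X chromosome the Xlr genes went the other way, with all 6 tested members lower, compared with 9.34% of all genes. Xlr4a was at 2.25 and 0.58 FPKM in 2i and 19.4 and 19.3 in 2i+LIF (log2 difference -3.17 ± 0.28, adjusted p = 0.000372), and its near-identical copies can share reads. Members of the Gstm glutathione transferase family, which like the Xlr genes was picked after the values had been seen, rose in 4 of 7 cases, compared with 10.3% of all genes, with Gstm3 at 33.1 and 34.1 FPKM in 2i and 17.2 and 14.5 in 2i+LIF (log2 difference 1.04 ± 0.15, adjusted p = 0.00305).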
